A study of Mus musculus with 4 samples.

Results

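The genes of the proteasome subunits were examined in mouse group 3 innate lymphoid cells (ILC3s), innate lymphocytes of mucosal tissue that are known for producing IL-22. Members were all genes whose symbol is Psma, Psmb, Psmc, Psmd or Psme followed by a number only, after the deposited transcript rows had been matched to symbols and summed per gene. There were 43 members among 24343 genes, and no measured value entered the choice of symbols. The group itself was picked out with earlier results of the same comparison in view, so fold changes, counts and calls of members are given as a description and support nothing by themselves.

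Cells had been stimulated with TL1A, a cytokine of the TNF superfamily and ligand of DR3, or had been kept in medium, with 2 RNA-seq libraries for each condition. All came from mice of genotype IL23R-GFP/WT, in which a single allele of the IL-23 receptor gene carries the GFP reporter. The sort took GFP-positive cells that carried CD127 and no lineage markers, so that both conditions share the reporter allele and the gate. The sources used here give neither the dose nor the duration of stimulation. They also do not state whether replicate libraries stem from different animals or cultures, and p-values therefore measure only a spread between libraries that could be technical. Assigned reads numbered 11849977 and 12605164 with TL1A and 11495636 and 12222552 in medium. Of the 9 ILC3 markers examined, 8 had enough reads to be tested, and the red cell, T cell, NK and ILC1, and epithelial and stromal lists each summed to at most 13.7 CPM (counts per 1000000 reads, with library sizes scaled by edgeR's TMM factors) in every library.

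The proteasome is the protease complex that degrades ubiquitin-tagged proteins. Its 20S core is a barrel of outer alpha rings and inner beta rings, and of the beta subunits only Psmb5, Psmb6 and Psmb7 carry active sites in most cells. In lymphocytes and in cells exposed to interferon, the inducible subunits Psmb8, Psmb9 and Psmb10 can take the places of Psmb5, Psmb6 and Psmb7, giving the immunoproteasome, whose products are well suited to presentation on MHC class I. The 19S regulator, built from a ring of ATPases and a set of non-ATPase subunits, binds ubiquitin chains and unfolds substrates, and the activators encoded by the Psme genes open the core without ubiquitin. The proteasome also cuts NF-κB precursors and destroys IκB proteins, which places it within signalling by TNF receptors.

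Most members had higher expression with TL1A, commonly by less than 1 on the log2 scale, and Psmb7 differed most. Of the 43 members, 39 had enough reads to be tested, and 28 were called higher, 0 lower and 11 not called (edgeR quasi-likelihood test fitted on all genes, Benjamini-Hochberg adjusted p under 0.05). Over all 9852 genes tested, 20.6% were called higher, 21.7% lower and 42.3% in either direction. At an unadjusted p under 0.05 no member was lower either, and limma-voom and DESeq2 also called 0 members lower. The log2 fold change (TL1A over medium) was above 0 for 38 of the 39 tested members and for 48.1% of all genes tested. Its median was 0.41 over the tested members and -0.03 over all genes tested, and the members ranged between -0.06 for Psma8 and 2.09 for Psmb7. Both TL1A libraries lay above both medium libraries for 32 of the 39 tested members, against 34.7% of all tested genes, and both lay below for 0 members, against 37.6%. The TMM factors were 0.908 and 0.921 with TL1A, against 1.094 and 1.094 in medium. Scaling by them raised the TL1A over medium value of every gene. No fit without such factors was made. The signs and calls of small differences, such as those of Psmb3 and Psmb5, and the counts above therefore rest on this scaling. Reads of all members together made up 1.32% and 1.34% of assigned reads with TL1A, and 1.07% and 1.09% in medium. In bulk RNA such a level cannot separate more RNA per cell from a changed mix of cells.

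**Figure D1:**
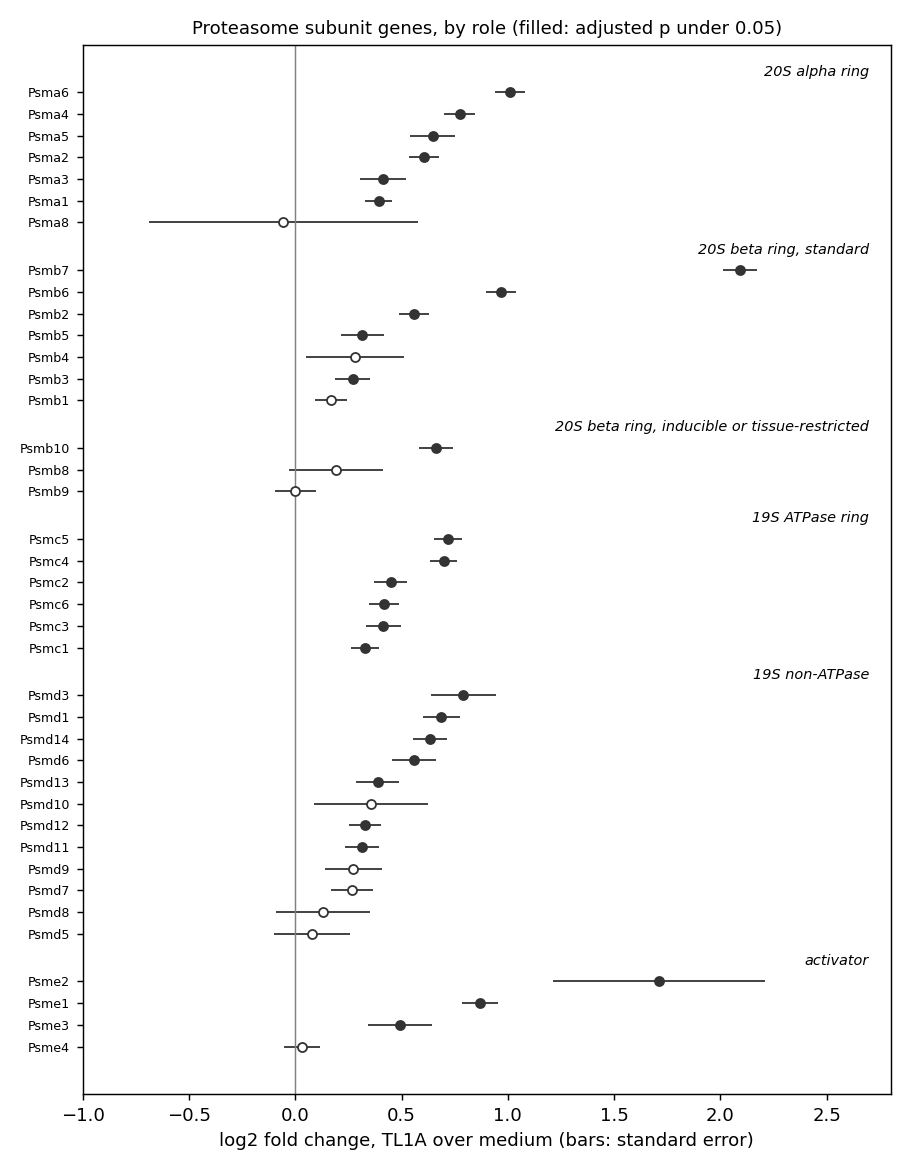
Log2 fold change of each tested proteasome subunit gene, TL1A over medium, with its standard error (x axis), grouped by role (y axis); filled points had an adjusted p under 0.05 over all genes. Most points lie between 0 and 1, Psmb7 lies at 2.09, and Psma8, Psmb9 and Psme4 lie at or next to 0.

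Of the 43 members, 4 were hardly measured. Psma7, an alpha ring subunit gene, had 1 read in each library, the ubiquitin receptor gene Psmd4 had 1 and 1 with TL1A and 2 and 0 in medium, and the scaffold gene Psmd2 had 0 and 1 with TL1A and 0 and 0 in medium. Each of these has 2 deposited rows, and reads in exons that belong to both rows were left uncounted, so these values say nothing of the genes' expression. Psmb11, a subunit gene of thymic epithelium, had a single row and 0 reads in every library, which allows up to 0.279 and 0.259 CPM with TL1A and 0.239 and 0.225 CPM in medium (3 counts per library, counting error only). The other members with 2 rows were Psmd10 and Psme2, and the remaining 38 members had 1 row each. Of the 10 rows of these members, 2 had enough reads to be tested on their own, and 1 of them, the main row of Psme2, was called, against 41.8% of the 10100 rows tested.

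The standard catalytic subunit genes were all called higher, by unequal amounts. Psmb7, which encodes the trypsin-like active site, had 684 and 662.4 CPM with TL1A, against 149 and 166.3 CPM in medium. The conditions lay far apart and the 2 libraries of each lay close together. Its log2 fold change was 2.09 (SE 0.08), a 4.27-fold difference, and it kept between 2.01 and 2.20 when any 1 library was left out. On the opposite strand, exons of Nek6 cover 34.9% of the Psmb7 exon bases. Both Nek6 rows had 0 reads in every library, but reads in exons that belong to both rows were left uncounted. The 0 therefore does not show that Nek6 was silent. The strand setting of the counting is not stated, and the part of antisense reads in the Psmb7 value was not tested. Psmb6, which encodes the caspase-like active site, had 751.1 and 693.7 CPM with TL1A, against 364.6 and 375.1 CPM in medium, and its log2 fold change was 0.97 (SE 0.07). Psmb5, which encodes the chymotrypsin-like active site, had 93.8 and 97.2 CPM with TL1A, against 80.1 and 73.4 CPM in medium. Its groups were separate but close, with a log2 fold change of 0.32 (SE 0.10), and its call was lost when medium replicate 2 or either TL1A library was left out and with a replicate block (adjusted p = 0.0934 in edgeR, 0.0399 without the block, and between 0.0469 and 0.162 when 1 library was left out). The genome annotation also lists pseudogenes named for Psmb5, Psmb6 and Psmb7, and the part of reads from such copies was not tested.

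The inducible catalytic subunits did not share one pattern. Psmb10, the counterpart of Psmb7, had 701.9 and 612.1 CPM with TL1A, against 409.8 and 420.6 CPM in medium, a log2 fold change of 0.66 (SE 0.08). Psmb9, the counterpart of Psmb6, had 178.9 and 155.4 CPM with TL1A, against 162.7 and 171.4 CPM in medium. The TL1A libraries of Psmb9 enclosed the medium ones, and its log2 fold change was 0.00053 (SE 0.10). Exons of Tap1 on the opposite strand overlap 12.6% of the exon bases of Psmb9. Psmb8, the counterpart of Psmb5, had 507.1 and 705.6 CPM with TL1A, against 651.4 and 411.2 CPM in medium. Here the spread within each condition was larger than the difference of the means, and the log2 fold change of 0.19 (SE 0.22) took the opposite sign without TL1A replicate 2 (-0.06) or without medium replicate 2 (-0.07). Without medium replicate 1 it was 0.55 and was called higher. A block of crossed replicate numbers was added after seeing the data. It pairs TL1A replicate 1 with medium replicate 2, and with it Psmb8 was also called (0.21, edgeR adjusted p = 0.0137). That pairing follows the order of the libraries in Psmb8 itself, so the call gives no further support.

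**Figure D2:**
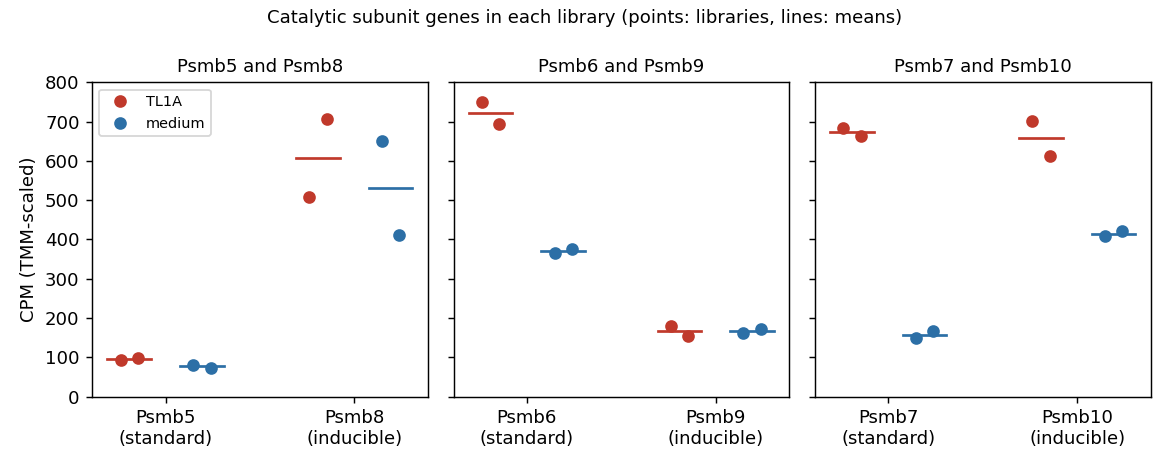
CPM (TMM-scaled, y axis) of the 3 standard catalytic subunit genes and their inducible counterparts (x axis) in each TL1A and medium library; points are libraries and lines are means. Psmb7 and Psmb6 separate the conditions most, Psmb9 does not separate them, and the Psmb8 libraries of both conditions are spread over the same range.

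Because each inducible subunit takes the place of one standard subunit, the reads of the counterparts were also set against each other within each library, which needs no scaling between libraries. Psmb10 had 1.03 and 0.924 reads for each Psmb7 read with TL1A, against 2.75 and 2.53 in medium. The conditions did not overlap, and the ratio averaged 0.975 ± 0.072 with TL1A and 2.64 ± 0.157 in medium (SD, n = 2 each). Psmb9 had 0.238 and 0.224 reads for each Psmb6 read with TL1A, against 0.446 and 0.457 in medium, again without overlap. Psmb8 had 5.40 and 7.26 reads for each Psmb5 read with TL1A, against 8.13 and 5.60 in medium, and these overlapped. In 2 of the 3 pairs the standard gene thus gained on its inducible counterpart with TL1A; no test was made, because 2 libraries on each side give an exact permutation test a smallest p of 0.333. Over the coding sequence, Psmb7 and Psmb10 share 63.4% of aligned bases, Psmb6 and Psmb9 66.4% and Psmb5 and Psmb8 68.1%.

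**Figure D3:**
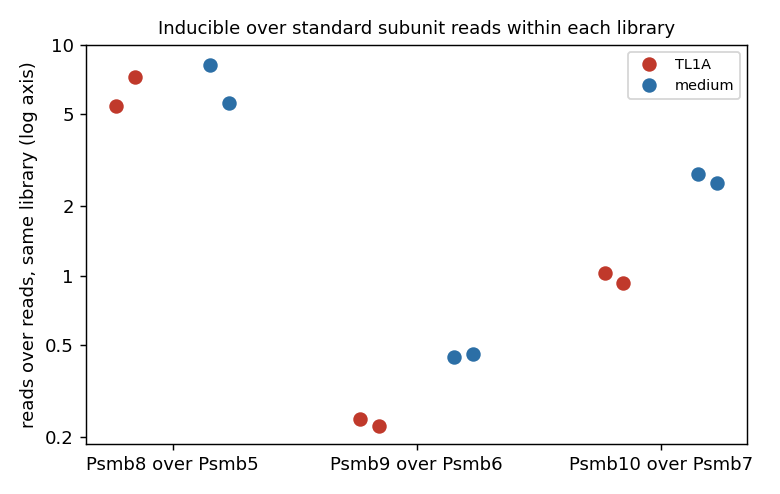
Reads of the inducible subunit gene divided by reads of its standard counterpart in the same library (y axis, log scale) for the 3 pairs (x axis), in TL1A and medium libraries. The TL1A points lie below the medium points for Psmb9 over Psmb6 and for Psmb10 over Psmb7, and are mixed with them for Psmb8 over Psmb5.

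To order genes within a condition, levels were taken per length, as CPM per kilobase of the transcript linked to the deposited accession. The read ratios of gene pairs are not corrected for length and serve only to compare the conditions. With TL1A the order of the catalytic genes was Psmb6 at 905.3, Psmb7 at 580.3, Psmb10 at 501.2, Psmb8 at 372.4, Psmb9 at 123.6 and Psmb5 at 106.2 CPM per kilobase. In medium it was Psmb6 at 463.5, Psmb8 at 326.3, Psmb10 at 316.7, Psmb7 at 135.9, Psmb9 at 123.6 and Psmb5 at 85.4 CPM per kilobase. The level of Psmb7 per length was thus next to that of Psmb10 with TL1A and next to that of Psmb9 in medium. In medium the libraries of Psmb8, at 400.1 and 252.6 CPM per kilobase, enclosed those of Psmb10, at 312.6 and 320.8, so these neighbours did not differ beyond their spread. With TL1A the libraries of Psmb9, at 132.4 and 114.9 CPM per kilobase, lay above those of Psmb5, at 104.4 and 108.1. Reads lost to other copies lower a gene's place in this order.

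Of the 4 activator genes, 3 were called higher and 1 was not called. Psme1, whose product forms the PA28 ring with that of Psme2 and is known as an interferon-inducible gene, had 717.2 and 692.5 CPM with TL1A, against 357.2 and 414.2 CPM in medium, a log2 fold change of 0.87 (SE 0.08). Psme2 itself had only 31 and 32 reads with TL1A, against 15 and 7 in medium, and reached the read minimum only through its TL1A libraries. Its log2 fold change of 1.71 (SE 0.50) ranged between 1.26 and 2.40 when 1 library was left out; its call was lost without either TL1A library, without medium replicate 2 and in DESeq2 (adjusted p = 0.0886, against 0.0277 in edgeR and between 0.0111 and 0.125 over all alternatives). Psme3, which encodes a nuclear activator, had 65.6 and 59.1 CPM with TL1A, against 49.8 and 38.9 CPM in medium, a log2 fold change of 0.49 (SE 0.15), and its call was lost without TL1A replicate 1 or medium replicate 2. Psme4, which encodes the large activator PA200, had 131.3 and 125.1 CPM with TL1A, against 122.8 and 128.1 CPM in medium, and the conditions overlapped, with a log2 fold change of 0.03 (SE 0.09).

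The few reads of Psme2 stand beside a near-identical copy, Psme2b, which the symbol rule leaves out. It was chosen once its values were known. Psme2b had 14283 and 14940 reads with TL1A, against 4005 and 4344 in medium, or 1328 and 1288 CPM against 318.9 and 325.3 CPM. Psme2b differed by 2.02 on the log2 scale (SE 0.06), with an edgeR adjusted p of 6.83e-07 and with both TL1A libraries above both medium libraries. The coding sequences of Psme2 on chromosome 14 and Psme2b on chromosome 11 differ at 5 of 720 bases, and the longest identical run is 311 bases. The coding stretch with the most differences, bases 394 to 543 of the coding sequence (GENCODE M21, GRCm38, both genes on the minus strand), is shown because it tells which reads can separate the copies; capitals mark the bases at which they differ.
Psme2: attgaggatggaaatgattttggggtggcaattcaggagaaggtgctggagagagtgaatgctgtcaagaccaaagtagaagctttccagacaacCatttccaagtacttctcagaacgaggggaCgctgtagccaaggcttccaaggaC
Psme2b: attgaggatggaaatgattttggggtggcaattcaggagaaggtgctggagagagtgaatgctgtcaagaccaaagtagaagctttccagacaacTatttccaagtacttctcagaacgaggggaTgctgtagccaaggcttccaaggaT
The copies differ at 3 of these 150 bases. Psme2 has 2 deposited rows that share exons, so that reads unique to Psme2 were left uncounted where the rows overlap, whereas Psme2b has 1 row. The share of RNA that comes from either copy therefore cannot be read from these counts. Against Psme1, Psme2b had 1.85 and 1.86 reads for each Psme1 read with TL1A, and 0.893 and 0.786 in medium.

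**Figure D4:**
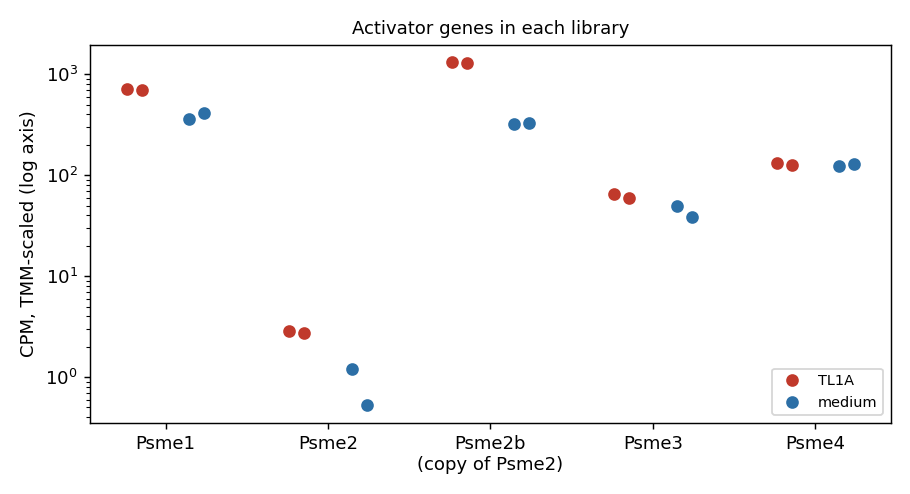
CPM (TMM-scaled, y axis, log scale) of the activator genes and of Psme2b, the copy of Psme2 (x axis), in each TL1A and medium library. Psme1, Psme2, Psme2b and Psme3 lie higher in both TL1A libraries than in both medium libraries, while the Psme4 libraries overlap.

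Of the 7 tested alpha ring genes, 6 were called higher and 1 was not called, with a median log2 fold change of 0.61. The alpha rings form the gate and the docking surface of the core. Psma6 had 811.3 and 810.1 CPM with TL1A, against 382.9 and 421.8 CPM in medium, a log2 fold change of 1.01 (SE 0.07). Psma4 had 300.05 and 287.2 CPM with TL1A, against 167.6 and 176 CPM in medium, a log2 fold change of 0.77 (SE 0.07). Psma5 had 100.9 and 94.4 CPM with TL1A, against 59.5 and 65.2 CPM in medium. At the low end, Psma1 had 690.7 and 681.5 CPM with TL1A, against 513 and 532.1 CPM in medium, a log2 fold change of 0.39 (SE 0.06). In each of these the conditions did not overlap. Psma2 and Psma3 lay between, with log2 fold changes of 0.61 and 0.41, and the call of Psma3 was lost without TL1A replicate 1 or medium replicate 2. Psma8, a subunit gene of germ cells, had 13 and 6 reads with TL1A, against 14 and 9 in medium, and its log2 fold change of -0.06 (SE 0.63) changed sign when 1 library was left out.

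Among the beta ring genes without active sites, 2 of 4 were called higher. Psmb2 had 626.5 and 580.7 CPM with TL1A, against 401.3 and 417.9 CPM in medium, a log2 fold change of 0.56 (SE 0.07). Psmb3 had 148.6 and 143.8 CPM with TL1A, against 119.4 and 123.2 CPM in medium, a log2 fold change of 0.27 (SE 0.08), and its call was lost without medium replicate 1, without either TL1A library and with a replicate block (adjusted p = 0.0958, edgeR; 0.035 without it). Psmb1 had 528 and 484.6 CPM with TL1A, against 432.4 and 468.3 CPM in medium. Its log2 fold change of 0.17 (SE 0.08) was not called (edgeR adjusted p = 0.118). It was 0.25 and called without medium replicate 2. With the crossed block it was 0.17 and called (edgeR adjusted p = 0.0214). Psmb4 had 46.3 and 70.6 CPM with TL1A, against 56.2 and 40.1 CPM in medium, so that its conditions overlapped.

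The ATPase ring, which unfolds substrates and feeds them into the core, was called higher in 6 of 6 genes, with log2 fold changes between 0.33 and 0.72. Psmc5 had 632.1 and 615.9 CPM with TL1A, against 370.1 and 388.7 CPM in medium, a log2 fold change of 0.72 (SE 0.07). Psmc4 had 663.5 and 665.3 CPM with TL1A, against 407.1 and 412.1 CPM in medium, a log2 fold change of 0.70 (SE 0.06). Psmc2 followed with 718.1 and 679.6 CPM with TL1A, against 482.9 and 540.4 CPM in medium. The smallest log2 fold changes of the ring were 0.33 for Psmc1 (SE 0.07) and 0.41 for Psmc3 (SE 0.08). Psmc1 had 442.5 and 459.1 CPM with TL1A, against 361.1 and 357.6 CPM in medium, and Psmc3 had 501.8 and 499.7 CPM with TL1A, against 350 and 402.2 CPM in medium. The conditions did not overlap in any of the 6 genes. The call of Psmc1 was lost without TL1A replicate 2 (edgeR adjusted p = 0.0508, 0.00611 with all libraries).

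Of the 12 tested non-ATPase genes of the 19S regulator, 7 were called higher and 5 were not called. Psmd3, which encodes a lid subunit, had 34.8 and 29.7 CPM with TL1A, against 18.4 and 18.9 CPM in medium, a log2 fold change of 0.79 (SE 0.15). Psmd1, the gene of a large scaffold of the base, had 752.3 and 777 CPM with TL1A, against 436.2 and 513.9 CPM in medium, a log2 fold change of 0.69 (SE 0.09). Psmd14, whose product removes ubiquitin from substrates, had 414 and 405.7 CPM with TL1A, against 248.6 and 278.9 CPM in medium, a log2 fold change of 0.64 (SE 0.08). Lid genes Psmd6, Psmd11, Psmd12 and Psmd13 were called higher with log2 fold changes of 0.56, 0.31, 0.33 and 0.39, and the calls of Psmd11, Psmd12 and Psmd13 were lost without TL1A replicate 1, that of Psmd11 also with a replicate block (adjusted p = 0.0521, edgeR; 0.0164 without it). Psmd7, the gene of the partner of Psmd14, had 435 and 481.9 CPM with TL1A, against 412.9 and 348.4 CPM in medium. Its log2 fold change of 0.27 (SE 0.10) was not called. It passed with RLE factors (edgeR adjusted p = 0.0427), without a low-count filter, without medium replicate 1 and in DESeq2. It also passed with the crossed block (edgeR adjusted p = 0.00266). When 1 library was left out, the log2 fold change of Psmd7 was between 0.18 and 0.39. The genes of assembly chaperones, Psmd5, Psmd9 and Psmd10, were not called, with log2 fold changes of 0.08 (SE 0.18), 0.27 (SE 0.13) and 0.36 (SE 0.27). Psmd5 had 20 and 24.7 CPM with TL1A, against 19.4 and 22.9 CPM in medium, and the conditions overlapped.

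A pattern across libraries that ran against the conditions marked 3 members. Psmd8, a lid subunit gene, had 309.2 and 449.7 CPM with TL1A, against 419.2 and 274.6 CPM in medium. As with Psmb8 and Psmb4, TL1A replicate 2 and medium replicate 1 both lay above TL1A replicate 1 and medium replicate 2. This order held for 3 of 39 tested members (7.69%) and for 9.55% of all tested genes, so it was not more frequent among members. Over all genes, the second principal component of log2 CPM, with 7.82% of the variance against 85.9% for the first, separated the libraries in the same way. The third component, with 6.33% of the variance, instead set both replicate 1 libraries apart from both replicate 2 libraries. Outside the group, Txnl1 and Adrm1, genes of proteins that bind the 19S regulator, had the same order as Psmd8. Both are named with their values known. Txnl1 had 78.6 and 102.9 CPM with TL1A, against 101.8 and 64.4 CPM in medium, and Adrm1 had 6.42 and 11.4 CPM with TL1A, against 14.1 and 5.17 CPM in medium.

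**Figure D5:**
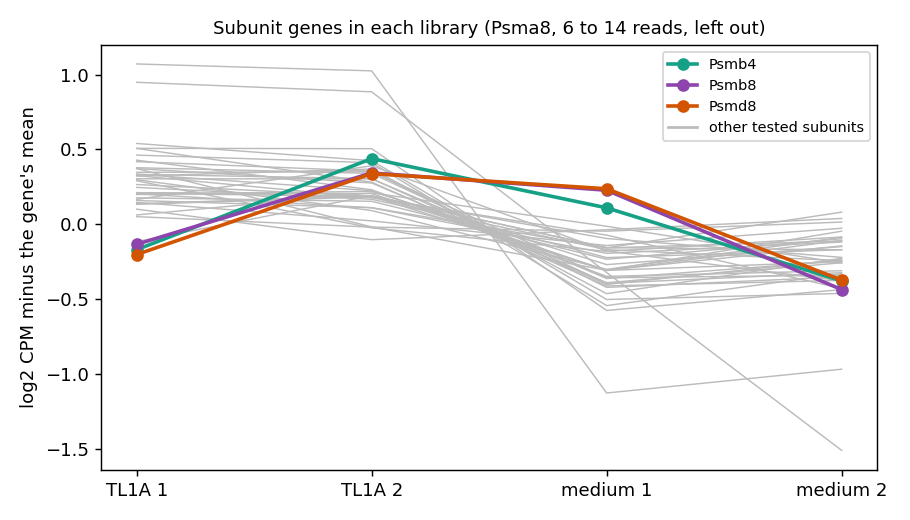
Log2 CPM minus the gene's own mean over the libraries (y axis) for each tested member except Psma8, in the TL1A and medium libraries (x axis). Psmb8, Psmd8 and Psmb4 (coloured) are high in TL1A replicate 2 and medium replicate 1, whereas most other members (grey) are higher in both TL1A libraries.

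Genes that work with the proteasome were taken from 5 lists chosen with earlier results known. Of their 36 tested genes, 12 were called higher and 2 lower. Over all genes tested, 20.6% were called higher and 21.7% lower, and each list count is to be read beside these shares. Of the 8 tested assembly factors and inhibitors, 2 were called higher. Pomp, whose product guides assembly of the beta ring and is needed for the immunoproteasome, had 7948 and 8050 reads with TL1A, against 3780 and 4536 in medium, and differed by 1.16 on the log2 scale (SE 0.08) with an edgeR adjusted p of 3.31e-05. Log2 fold changes were 0.41 (SE 0.11) for the chaperone gene Psmg3 and 0.40 (SE 0.14, not called) for Psmg1, another chaperone gene. The call of Psmg3 was lost when either TL1A library or medium replicate 1 was left out and with a replicate block (edgeR adjusted p = 0.0507, 0.0201 without the block). Psmg1 passed with RLE factors (edgeR adjusted p = 0.0401), with the crossed block (edgeR adjusted p = 0.0362) and with limma-voom (adjusted p = 0.0496). Psmf1, which encodes an inhibitor of the core, had 2010 and 2000 reads with TL1A, against 2425 and 2717 in medium, and its log2 fold change of -0.14 (SE 0.08) was not called.

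Among receptors, shuttles and deubiquitinases, 4 of 10 tested genes were called higher and 0 lower. Zfand5, which encodes an activator of the 19S regulator, had 1488 and 1526 reads with TL1A, against 640 and 816 in medium, which is 1.27 on the log2 scale (SE 0.12) with an edgeR adjusted p of 0.000131. Log2 fold changes were 0.72 (SE 0.10) for the ligase gene Ube3c and 0.50 (SE 0.07) for Sem1, the gene of the smallest 19S subunit. Rad23b, a shuttle gene, had one of 0.56 (SE 0.14), which was not called without medium replicate 1 or without TL1A replicate 1. In the list of ubiquitin, E1 and p97 genes, 2 of 8 were called higher, Ubb (0.56, SE 0.11) and Faf2 (0.53, SE 0.07). The p97 ATPase gene Vcp had 91.8 and 127.7 CPM with TL1A, against 86 and 55.9 CPM in medium, and its log2 fold change of 0.63 (SE 0.22) was not called. It was called with DESeq2, RLE factors, no low-count filter and the crossed block. It was also called without TL1A replicate 1 (0.86) or medium replicate 1 (0.97). Its log2 fold change was 0.38 and not called without TL1A replicate 2 or without medium replicate 2.

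Of the regulators of proteasome genes, 2 of 6 tested were called higher and 2 lower, and the lower call of Irf1 rests on few reads. Nfe2l2, which encodes the transcription factor NRF2, fell by 0.60 on the log2 scale with an SE of 0.07 and an edgeR adjusted p of 0.00044, with 3116 and 3202 reads with TL1A, against 5498 and 5604 in medium. Nfe2l1, whose product NRF1 drives proteasome genes when the proteasome is impaired, has 6 deposited rows and had 2 and 0 reads with TL1A and 0 and 1 in medium, so it was not measured. Ngly1, the gene of an enzyme that NRF1 needs, had a log2 fold change of 0.56 (SE 0.14; not called without TL1A replicate 2 or medium replicate 1). Nlrc5, which encodes an activator of MHC class I genes, had one of 0.45 (SE 0.10; not called without TL1A replicate 1). Irf1, an interferon response factor gene, had only 5 and 6 reads with TL1A, against 17 and 24 in medium, on 3 rows. It reached the read minimum only through its medium libraries. Its call as lower was lost when any library was left out and with a replicate block (adjusted p = 0.0852, edgeR). It was also lost in DESeq2 (adjusted p = 0.244, 0.042 in edgeR). Of the 4 tested peptide loading genes, which act on the products of the immunoproteasome, log2 fold changes were 0.89 (SE 0.06) for B2m and 0.31 (SE 0.08) for Tap2, whose call was lost without TL1A replicate 1 and with a replicate block (edgeR adjusted p = 0.0521, 0.0137 without the block), and Erap1 and Tap1 were not called. Tap1, next to Psmb9, had only 5 and 14 reads with TL1A, against 13 and 11 in medium, on 2 rows.

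The lid of the 19S regulator is related in structure to the COP9 signalosome and to the translation factor eIF3, and the genes of these complexes give a scale for the members. In the COP9 signalosome list 2 of 6 tested genes were called higher, with a median log2 fold change of 0.10. In the eIF3 list 6 of 12 were called higher, with a median of 0.20, and 5 were with a replicate block. Over all genes tested, 20.6% were called higher, with a median of -0.03. Neither list had a gene called lower, but 1 eIF3 gene was called lower with limma-voom, with no low-count filter, over single-row genes and without medium replicate 1. The median of the proteasome members was 0.41; no test of the difference was made. The largest log2 fold changes were 0.36 for Cops6 (SE 0.07) and 0.72 for Eif3c (SE 0.07). The other called COP9 gene, Cops3, lost its call with a replicate block (edgeR adjusted p = 0.111, 0.0439 without it), without either TL1A library and without medium replicate 1.

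Markers of other immune cells moved with the conditions, and not in 1 direction. Among B cell markers, Cd79b had 114.03 and 97.7 CPM with TL1A, against 35.9 and 47.2 CPM in medium, and was called higher with a log2 fold change of 1.35 (SE 0.16), while no library held a read of Pax5 or Ms4a1. The 5 ILC2 markers summed to 152.6 and 143.1 CPM with TL1A, against 63.8 and 66.3 CPM in medium. Of these, Klrg1 alone had 138.2 and 131.2 CPM with TL1A, against 27.4 and 27.9 CPM in medium, and was called higher. The higher sum with TL1A thus came from Klrg1, while Il1rl1 and Il17rb were called lower and 2 were not called. The 8 myeloid and dendritic markers summed to 35.6 and 45.8 CPM with TL1A, against 85.3 and 98.2 CPM in medium, with 2 of 7 tested genes called lower and 1 higher. The part of such cells in the levels of the members was not tested.

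Promoter sequences from the RefSeq table (GRCm38.p6) were matched for 36 of the 43 members. In the 250 bases before the start, 5 motifs were searched on both strands. For a member, the window nearest to the start of its counted transcript was used. The shares over all promoters rest on the first listed window of each gene, so the windows were not chosen alike. The core of the antioxidant response element, bound by NRF1 and NRF2, TGACNNNGC, was present in 5 of 36 windows (13.9%), against 10.1% of all 27025 promoters. The κB form, GGG and CC with any 5 bases between them, was present in 20 of 36 (55.6%) and 45.4% of all, and the CCAAT box, CCAAT, in 13 (36.1%) and 34.5%. The interferon-stimulated response element form, GAAA and GAAA with any 2 bases between them, was present in 3 (8.33%) and 3.04%, and the GAS form TTCNNNGAA in 1, that of Psmb8 (2.78%), and 7.18%. Of the 36 windows, 5 lie wholly in annotated exons, among them those of Psmb8 and Psmb9, whose starts in the table are 405 and 434 bases away from that of the counted transcript. These are matches of letters and do not show binding, and matches of different motifs did not exclude each other. The windows of the members with the largest and smallest fold changes that the table holds are shown, without bases that lie in annotated exons, 5′ to 3′ on the gene's strand; capitals mark κB, CCAAT and antioxidant response element matches. Psmb7 has no window in the table, and the window of Psmb9 is left out. Among tested members with a window, the log2 fold changes were largest for Psme2, Psma6 and Psmb6 (1.71, 1.01 and 0.97), and that of Psme4 was among the smallest (0.03). The place of Psme2 rests on few reads, as given above.
Psme2 (chr14:55591114-55591351, minus strand): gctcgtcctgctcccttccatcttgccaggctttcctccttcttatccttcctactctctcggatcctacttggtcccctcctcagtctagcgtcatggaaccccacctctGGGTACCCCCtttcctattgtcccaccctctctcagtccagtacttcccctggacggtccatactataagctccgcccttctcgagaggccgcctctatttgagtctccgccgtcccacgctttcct
Psma6 (chr12:55398575-55398774, plus strand): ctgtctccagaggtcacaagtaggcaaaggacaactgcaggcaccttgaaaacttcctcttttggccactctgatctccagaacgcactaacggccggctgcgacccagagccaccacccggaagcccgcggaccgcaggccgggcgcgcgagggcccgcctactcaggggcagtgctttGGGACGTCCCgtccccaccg
Psmb6 (chr11:70525107-70525356, plus strand): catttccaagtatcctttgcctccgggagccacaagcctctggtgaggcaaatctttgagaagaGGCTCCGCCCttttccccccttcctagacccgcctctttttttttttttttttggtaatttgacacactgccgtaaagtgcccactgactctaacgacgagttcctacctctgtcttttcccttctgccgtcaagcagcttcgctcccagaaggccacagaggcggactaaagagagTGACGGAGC
Psme4 (chr11:30771525-30771725, plus strand): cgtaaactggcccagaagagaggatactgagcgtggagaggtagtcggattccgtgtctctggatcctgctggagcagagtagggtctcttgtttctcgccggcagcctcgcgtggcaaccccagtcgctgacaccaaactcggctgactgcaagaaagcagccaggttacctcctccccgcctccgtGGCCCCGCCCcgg
Each of the 4 shown stretches held a κB form match, whatever its gene's fold change, and only that of Psmb6 held the antioxidant response element core, at bases -9 to -1 before the start.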

How the data were processed

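RNA-seq libraries of TL1A-stimulated and medium-kept mouse ILC3s were compared, 2 each. The SMARTer Ultra Low Input kit served for cDNA, per the labels' protocols, and CASAVA, STAR and HTSeq were used with build mm9, per the submitters' processing notes. Tool versions, the strand setting and the annotation are not stated there. What the authors deposited are unnormalized read counts, 1 row per RefSeq transcript. HTSeq sets reads shared by transcript rows aside as ambiguous (33.7% to 34% of assigned plus ambiguous reads). The 5 HTSeq summary rows (69.9% to 71.3% of each column) were left out. Of 33535 rows, 33154 matched a symbol of a GRCm38.p6 RefSeq table, used for names only, and rows were summed per gene.

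Tests used edgeR 4.0.16 in R 4.3.3 (filterByExpr, minimum count 10, TMM factors, glmQLFit and glmQLFTest, group as only term, two-sided, Benjamini-Hochberg over 9852 genes). SE is the log2 fold change divided by the square root of F. CPM uses TMM-scaled library sizes. Alternatives were RLE factors, DESeq2 1.42.0, limma 3.58.1 (voom), no low-count filter, a replicate block, leaving out each library, single-row genes, and the row with most reads; a crossed block was added after seeing the data. The test was checked on simulated data. Replicate libraries differed beyond sampling noise, with chi-square values per degree of freedom of 7.98 for TL1A and 12.3 for medium. Coding sequences were aligned with Biopython 1.88; lengths come from GENCODE M21. Members and lists were chosen with earlier results of these data known. Named in full were the catalytic subunits, the activators and, per role, the 3 largest and 2 smallest log2 fold changes; from each list, examples among the 4 smallest p. Protein sequences are not used here, and 1 marker gene is not reported here.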

Additional observations from a re-analysis of the deposited data

How the results depend on the processing

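Of the 28 members called higher, 19 were called in all 12 alternatives, and 9 lost the call in at least 1 of them (Psma3, Psmb3, Psmb5, Psmc1, Psmd11, Psmd12, Psmd13, Psme2 and Psme3). The number called higher was 28 with DESeq2 and limma-voom, 29 with RLE factors and between 20 and 29 when 1 library was left out, with 20 without TL1A replicate 1. The median log2 fold change of members was between 0.42 and 0.51 when 1 library was left out, with the highest value without medium replicate 2. Of the rows of members with several transcripts, 1 was called, and 0 or 1 when a library was left out (0 without either TL1A library or without medium replicate 2).

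The titles give both conditions the replicate numbers 1 and 2 without saying what they mark. Libraries of the same number did not deviate together (correlation of deviations -0.105 across genes). With the replicate block 25 members were called, against 28 without it, and all genes called numbered 3542, against 4168. Members that lost a call are named where they are described, and the block changed no other member's call. Listed genes that work with the proteasome, and COP9 genes, that lost a call are also named there. The eIF3 list had 5 genes called higher with the block, against 6 without it. With the numbers crossed, a pairing added after seeing the data, 31 members were called, and all genes called numbered 4734. Calls made with the crossed pairing are given as a description and support nothing by themselves.

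Reversed signs were found only for small or uncalled differences. The log2 fold change of Psmb9 was -0.00187 with the crossed block, -0.00229 with the replicate block, -0.0049 with limma-voom and -0.00783 over single-row genes. When 1 library was left out, the log2 fold change ranged between -0.10 and 0.11 for Psmb9, -0.77 and 0.44 for Psma8, -0.045 and 0.56 for Psmb4, -0.074 and 0.55 for Psmb8, -0.074 and 0.23 for Psmd5, -0.16 and 0.46 for Psmd8, -0.0064 and 0.090 for Psme4, and -0.97 and 0.38 for Tap1. The cause was not tested. All fits rest on 2 libraries a condition, or on 1 library of a condition where a library was left out, which is then assumed to vary like the other condition. Genes with several deposited rows were counted only over the parts that belong to 1 row, so their levels are too low by an unknown amount.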
